A study of Mus musculus with 26 samples.

Results

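Hal, Pipox, Ces1d and Adh1 encode metabolic enzymes that are usually abundant in the liver, and their values were followed through tumours and spleen cells of mice with pancreatic ductal adenocarcinoma. The 4 genes were picked by symbol for their large differences between GS9820-treated and vehicle tumours, out of 16322 genes with values in the tumour libraries. The values that chose them are therefore the tumour values themselves, and the tumour differences below are a description with no test. The rule had no threshold, so no gene lay just inside or outside one. Of the 4 genes, 2 (Hal and Ces1d) also had values among the 14131 genes of the sorted-cell libraries, which played no part in the choice.

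All mice were KPC mice, an engineered model of pancreatic cancer driven by a Cre recombinase in the pancreas; the labels give the strain name KPC only, and neither the alleles, the Cre promoter nor the age. GS9820 is an inhibitor of p110δ, the catalytic subunit of phosphoinositide 3-kinase that is most used by leukocytes. Whole tumours gave 5 libraries from mice treated with GS9820 for 14 days and 7 from vehicle mice, for which no day is labelled. Polymorphonuclear cells (PMN) sorted from the spleen gave 4 GS9820 and 3 vehicle libraries, and sorted monocytes likewise gave 4 and 3. The library names add the word low to all PMN and high to all monocytes, without saying of what. Libraries are numbered as labelled, and the labels do not say whether each came from a different mouse, so the spread between libraries may in part be technical. A whole tumour mixes carcinoma, stroma, immune cells and whatever neighbouring tissue was taken with it, so that fewer cells of a type and less RNA per cell cannot be told apart.

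Histidine ammonia-lyase (Hal) opens histidine breakdown by removing ammonia to give urocanate, a step best known from liver and epidermis. Pipox is a peroxisomal oxidase of pipecolate, an intermediate of lysine breakdown, and of sarcosine. Ces1d is a carboxylesterase of the endoplasmic reticulum that hydrolyses esters and triacylglycerol in liver and fat, and Adh1 is the class I alcohol dehydrogenase, which oxidises ethanol and retinol in liver and gut.

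Hal (ENSMUSG00000020017) lies on chromosome 10 at 93488768 to 93519304 on the plus strand, and Pipox (ENSMUSG00000017453) on chromosome 11 at 77880615 to 77894096 on the minus strand. Ces1d (ENSMUSG00000056973) lies on chromosome 8 at 93166068 to 93197838 on the minus strand, and Adh1 (ENSMUSG00000074207) on chromosome 3 at 138260991 to 138290698 on the plus strand (GENCODE M21, GRCm38). Promoter sequences were at hand for 3 of the 4 genes, from RefSeq with build GRCm38.p6. They are printed because these genes differed together in the tumours, and each runs 5′ to 3′ on the gene's own strand from 250 bases before to 50 bases after the RefSeq start. Capitals mark every match to a searched motif. The Hal window is chr10:93488518-93488817, plus strand. The Pipox window is chr11:77893823-77894122, minus strand, and its RefSeq start at 77893872 lies downstream of the GENCODE start at 77894096. The Adh1 window is chr3:138277335-138277634, plus strand, and its RefSeq start at 138277585 lies downstream of the GENCODE start of the gene.
Hal: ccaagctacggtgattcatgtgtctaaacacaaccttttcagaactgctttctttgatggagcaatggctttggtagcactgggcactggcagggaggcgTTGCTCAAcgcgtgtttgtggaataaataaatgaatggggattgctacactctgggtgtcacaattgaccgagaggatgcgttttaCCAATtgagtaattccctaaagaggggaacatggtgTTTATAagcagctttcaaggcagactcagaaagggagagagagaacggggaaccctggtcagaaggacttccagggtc
Pipox: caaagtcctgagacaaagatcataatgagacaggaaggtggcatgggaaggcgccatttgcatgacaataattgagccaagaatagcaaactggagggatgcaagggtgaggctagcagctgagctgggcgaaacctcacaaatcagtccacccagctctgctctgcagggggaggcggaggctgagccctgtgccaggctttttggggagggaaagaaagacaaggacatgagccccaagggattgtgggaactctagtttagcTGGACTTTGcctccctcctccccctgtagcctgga
Adh1: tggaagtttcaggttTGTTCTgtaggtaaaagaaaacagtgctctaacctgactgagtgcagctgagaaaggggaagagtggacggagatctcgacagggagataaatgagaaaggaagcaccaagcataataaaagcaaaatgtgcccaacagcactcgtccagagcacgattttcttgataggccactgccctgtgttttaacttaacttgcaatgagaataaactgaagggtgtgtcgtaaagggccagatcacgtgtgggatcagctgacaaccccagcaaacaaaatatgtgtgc

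The 8 motifs were searched on both strands in all 32851 RefSeq promoter windows of this length. The Hal window held the TATA box TATAAA, read as TTTATA at -28 to -23, and this motif was present in 13.6% of all windows. It also held CCAAT at -64 to -60, found in 37.4% of windows, and the C/EBP motif TTGCNNAA as TTGCTCAA at -150 to -143, found in 10.8%. The Pipox window held the HNF4 motif CAAAGTCCA, read as TGGACTTTG at 16 to 24 after the start, and 0.475% of windows held it. In the Adh1 window only the glucocorticoid receptor motif AGAACA matched, read as TGTTCT at -235 to -230, with 19% of windows holding it. None of the 3 windows held the GC box GGGCGG (35.7% of windows), the HNF1 motif GTTAAT (7.1%) or the D-box TTATGTAA (0.938%). No motif was shared by any pair of the 3 genes, and GC content was 47.7% for Hal, 54.3% for Pipox and 45.3% for Adh1, against a median of 52.7% over all windows. These matches describe the letters of the windows only.

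Before the values of the enzymes, the libraries themselves need a description, because some carried transcripts of other tissues. Ductal markers were well represented in all 12 tumours, with list means of 6.92 to 8.97 in GS9820 tumours and 4.21 to 8.93 in vehicle tumours on the deposited log2 scale. GS9820 tumour 1 had an intestinal epithelium list mean of 10.9, against 1.85 to 3.17 in the other GS9820 tumours and 1.71 to 4.63 in vehicle tumours, and this list was chosen after the values of that library were seen. GS9820 tumour 3 had a hepatocyte list mean of 10.9, against 2.07 to 5.01 in the other GS9820 tumours and 0.78 to 4.67 in vehicle tumours. Alb, the liver's serum albumin, stood at 13.3 in GS9820 tumour 3 and between -0.30 and 4.67 in the other GS9820 tumours, against -0.52 to 6.15 in vehicle tumours. The differences of the 4 enzymes and the count of pathway genes called are therefore also given without GS9820 tumours 1 and 3. Marker list and pathway list differences are given with both tumours included. Sequencing depth is unknown, because the deposited values share nearly 1 distribution in all libraries of a set.

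The enzymes of amino acid breakdown, Hal and Pipox, were higher in every GS9820 tumour than in any vehicle tumour. Hal stood at 3.97, 5.62, 5.09, 4.03 and 5.88 in GS9820 tumours 1 to 5, against 1.57, 0.34, 0.47, 3.95, -0.13, -1.31 and 1.07 in vehicle tumours 1 to 7. Vehicle tumour 4 was the exception among vehicle tumours, and only 0.02 separated it from the lowest GS9820 tumour. Hal averaged 4.92 ± 0.885 in GS9820 tumours (SD, n = 5) and 0.85 ± 1.64 in vehicle tumours (SD, n = 7), a difference of 4.07 (SE 0.74) on the log2 scale, or 16.8-fold. In rank, the median Hal value was at or above 56.0% of the genes of its library in GS9820 tumours and at or above 2.52% in vehicle tumours.

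Pipox had the widest gap between groups of the 4 genes. Its values were 2.73, 3.46, 5.50, 3.08 and 2.44 in GS9820 tumours 1 to 5, against -1.04, 0.02, 0.19, -0.90, 0.97, 0.07 and -1.74 in vehicle tumours 1 to 7. A gap of 1.47 lay between the lowest GS9820 tumour and the highest vehicle tumour, and GS9820 tumour 3, the library with liver transcripts, stood highest. Pipox averaged 3.44 ± 1.21 in GS9820 tumours (SD, n = 5) and -0.35 ± 0.92 in vehicle tumours (SD, n = 7), a difference of 3.79 (SE 0.59), or 13.8-fold. Its median was at or above 21.7% of genes in GS9820 tumours and 1.65% in vehicle tumours. The GS9820 median thus remained in the lower part of the distribution, while GS9820 tumour 3 was at or above 64.6% of genes.

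Ces1d, the ester and triacylglycerol hydrolase, was also above every vehicle tumour in all GS9820 tumours. It stood at 4.57, 3.78, 6.29, 4.10 and 3.14 in GS9820 tumours 1 to 5, against -0.21, 1.40, 0.15, -1.62, 2.56, 1.91 and -0.77 in vehicle tumours 1 to 7. The groups were 0.58 apart at their nearest, and GS9820 tumour 3 was again the highest library. Ces1d averaged 4.38 ± 1.19 in GS9820 tumours (SD, n = 5) and 0.49 ± 1.52 in vehicle tumours (SD, n = 7), a difference of 3.89 (SE 0.74), or 14.8-fold. By rank its median was at or above 37.0% of genes in GS9820 tumours and 1.87% in vehicle tumours.

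Adh1, the alcohol and retinol dehydrogenase, had the highest group means of the 4 genes and the only overlap between groups. Its values were 9.92, 4.99, 6.92, 6.62 and 4.49 in GS9820 tumours 1 to 5, against 1.50, 2.70, 3.29, 2.47, 5.05, 3.04 and 2.60 in vehicle tumours 1 to 7. Vehicle tumour 5 lay above GS9820 tumours 2 and 5, and GS9820 tumour 1, the library with intestinal transcripts, stood far above the rest. Adh1 averaged 6.59 ± 2.13 in GS9820 tumours (SD, n = 5) and 2.95 ± 1.08 in vehicle tumours (SD, n = 7), a difference of 3.64 (SE 0.83), or 12.4-fold. Its median was at or above 83.9% of genes in GS9820 tumours and 17.1% in vehicle tumours.

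**Figure D1:**
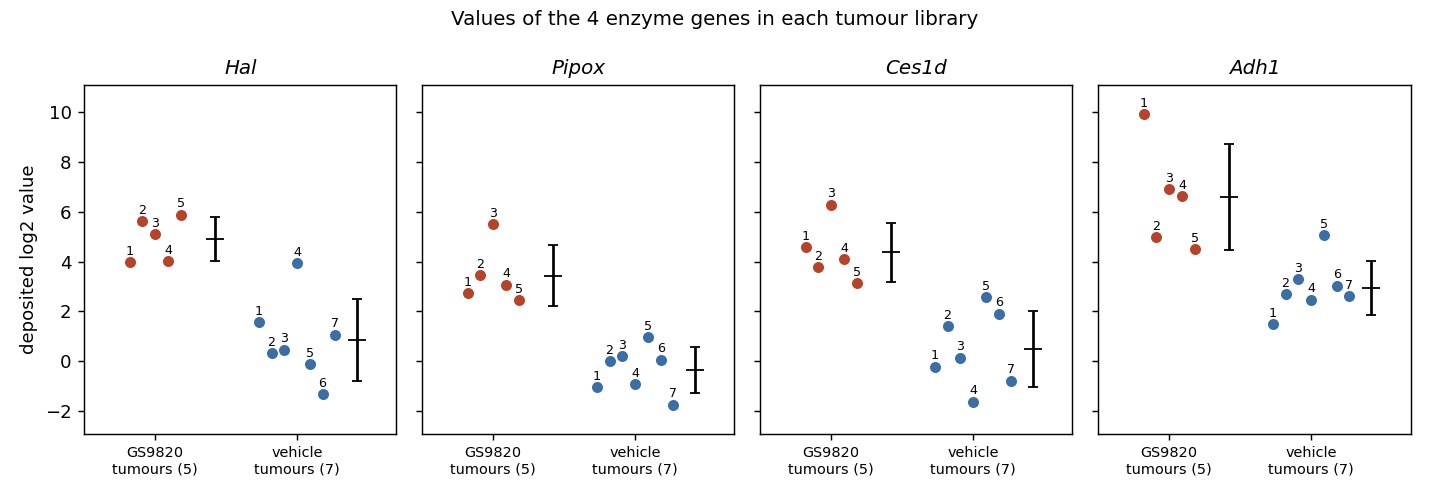
Deposited log2 values (vertical axis) of Hal, Pipox, Ces1d and Adh1 in 5 GS9820 tumours (red, left) and 7 vehicle tumours (blue, right), 1 point per numbered library, with group mean and SD as black bars. Hal, Pipox and Ces1d do not overlap between groups, with Hal of GS9820 tumour 1 (3.97) and of vehicle tumour 4 (3.95) almost level, while Adh1 of vehicle tumour 5 (5.05) lies among GS9820 tumours.

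Every GS9820 tumour exceeded every vehicle tumour for 155 of 16296 genes tested, which is 0.951% of them; 3 of the 4 enzymes are among these, from which nothing can be read because they were chosen on these values. The plot of values by library also shows that the 4 genes did not peak together, since Hal was highest in GS9820 tumour 5, Pipox and Ces1d in GS9820 tumour 3 and Adh1 in GS9820 tumour 1. Hal was lowest in the same GS9820 tumour in which Adh1 was highest. Without GS9820 tumours 1 and 3 the differences were 4.33 (SE 0.92) for Hal, 3.34 (SE 0.61) for Pipox, 3.18 (SE 0.83) for Ces1d and 2.42 (SE 0.66) for Adh1. Leaving out any 1 library kept the difference between 3.71 and 4.59 for Hal, 3.27 and 4.04 for Pipox, 3.41 and 4.23 for Ces1d, and 2.81 and 4.16 for Adh1.

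A gene antisense to Adh1, Gm16559, followed it closely and was singled out after its values were seen. Gm16559 lies on the minus strand of chromosome 3 at 138281408 to 138307022 and shares 136 of its 1564 exon bases with Adh1. It stood at 7.54, 2.29, 4.83, 4.31 and 2.37 in GS9820 tumours 1 to 5, against 0.52, 0.98, 1.70, 1.18, 2.99, 0.66 and 0.96 in vehicle tumours 1 to 7. The order of its libraries was nearly that of Adh1, with a correlation of 0.97 over the 12 tumours after the group means were subtracted. The libraries were made with a stranded kit per the labels, but whether strand was used in counting is not given in the sources used here. Reads from the stretch where both genes overlap therefore cannot be told apart. Ces1d overlaps Gm45909, a model on the same strand with 0 exon bases in common and no value here. None of the 100-base windows of the longest transcript of each of the 4 enzymes occurred in a transcript of another gene.

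The enzymes are known from tissues that border or make up the pancreas region, and marker lists of those tissues moved with the groups to different degrees. Acinar cells make the digestive enzymes of the normal pancreas. All 24 acinar markers had values, and the list mean was 9.13, 10.50, 5.70, 10.36 and 8.93 in GS9820 tumours 1 to 5, against 2.76, 9.62, 6.11, 6.41, 7.75, 10.38 and 2.60 in vehicle tumours 1 to 7. The groups overlapped widely, and 0 of the 24 markers passed the test although all 24 differences were positive, with a median of 2.48. Amy2a5 (pancreatic amylase) differed by 1.46 (SE 1.22) and Ctrb1 (chymotrypsinogen) by 2.13 (SE 1.47). Vehicle tumours 6 and 2 had acinar means of 10.38 and 9.62, as high as GS9820 tumours, with Pipox at 0.07 and 0.02, Hal at -1.31 and 0.34, Ces1d at 1.91 and 1.40 and Adh1 at 3.04 and 2.70. Ces1d in these libraries was the second and the third highest of the 7 vehicle tumours.

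Adipocyte markers had values for 12 of 16 genes, with 11 tested and 0 called, 9 positive differences and a median of 1.59, and Lep, Retn, Adrb3 and Thrsp had none. The list mean was 5.51, 1.22, 3.55, 3.44 and 4.30 in GS9820 tumours 1 to 5, against 0.95, 1.54, 0.89, 3.34, 1.14, 2.45 and 1.63 in vehicle tumours 1 to 7. In 4 of 5 GS9820 tumours it lay above every vehicle tumour, and GS9820 tumour 2 fell within the vehicle range. Gpd1 (glycerol-3-phosphate dehydrogenase) differed by 0.93 (SE 0.86) and Fabp4 (the adipocyte fatty acid binding protein) by 1.59 (SE 0.59). The widest adipocyte differences, looked up after the values were seen, were 5.27 (SE 1.34) for Car3 and 4.16 (SE 1.13) for Adipoq, which encodes adiponectin.

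Hepatocyte markers had values for 13 of 22 genes, with 12 tested and 0 called, 11 positive differences and a median of 2.37. The list mean was 5.01, 2.07, 10.86, 2.41 and 2.47 in GS9820 tumours 1 to 5, against 0.78, 2.56, 1.29, 4.67, 1.56, 2.29 and 2.45 in vehicle tumours 1 to 7. Apart from GS9820 tumours 1 and 3 the groups overlapped, with medians over all libraries of 2.47 in GS9820 and 2.29 in vehicle tumours. Apob (apolipoprotein B) differed by 0.91 (SE 1.85) and Gc (vitamin D binding protein) by 1.33 (SE 1.07). In GS9820 tumour 1, the library with intestinal transcripts, the highest values of the list were Apoa1 (12.29), Apob (11.84) and Cyp3a11 (9.82). The other genes of the list stood at 0.21 to 4.67 there. Vehicle tumours 2, 6 and 7 had Apob at 10.28, 9.97 and 9.04 with Alb at 1.97, 1.62 and -0.52. Vehicle tumour 4 had high Apob with the highest vehicle Alb, 6.15. High Apob thus did not always go with high Alb, and its tissue of origin was not tested. The widest hepatocyte difference, looked up likewise, was 4.55 (SE 1.46) for Cyp2e1, a cytochrome P450 of the liver. In GS9820 tumour 2 the adipocyte and hepatocyte means were both near the vehicle medians, at 1.22 and 2.07, while Hal stood at 5.62, Pipox at 3.46, Ces1d at 3.78 and Adh1 at 4.99.

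**Figure D2:**
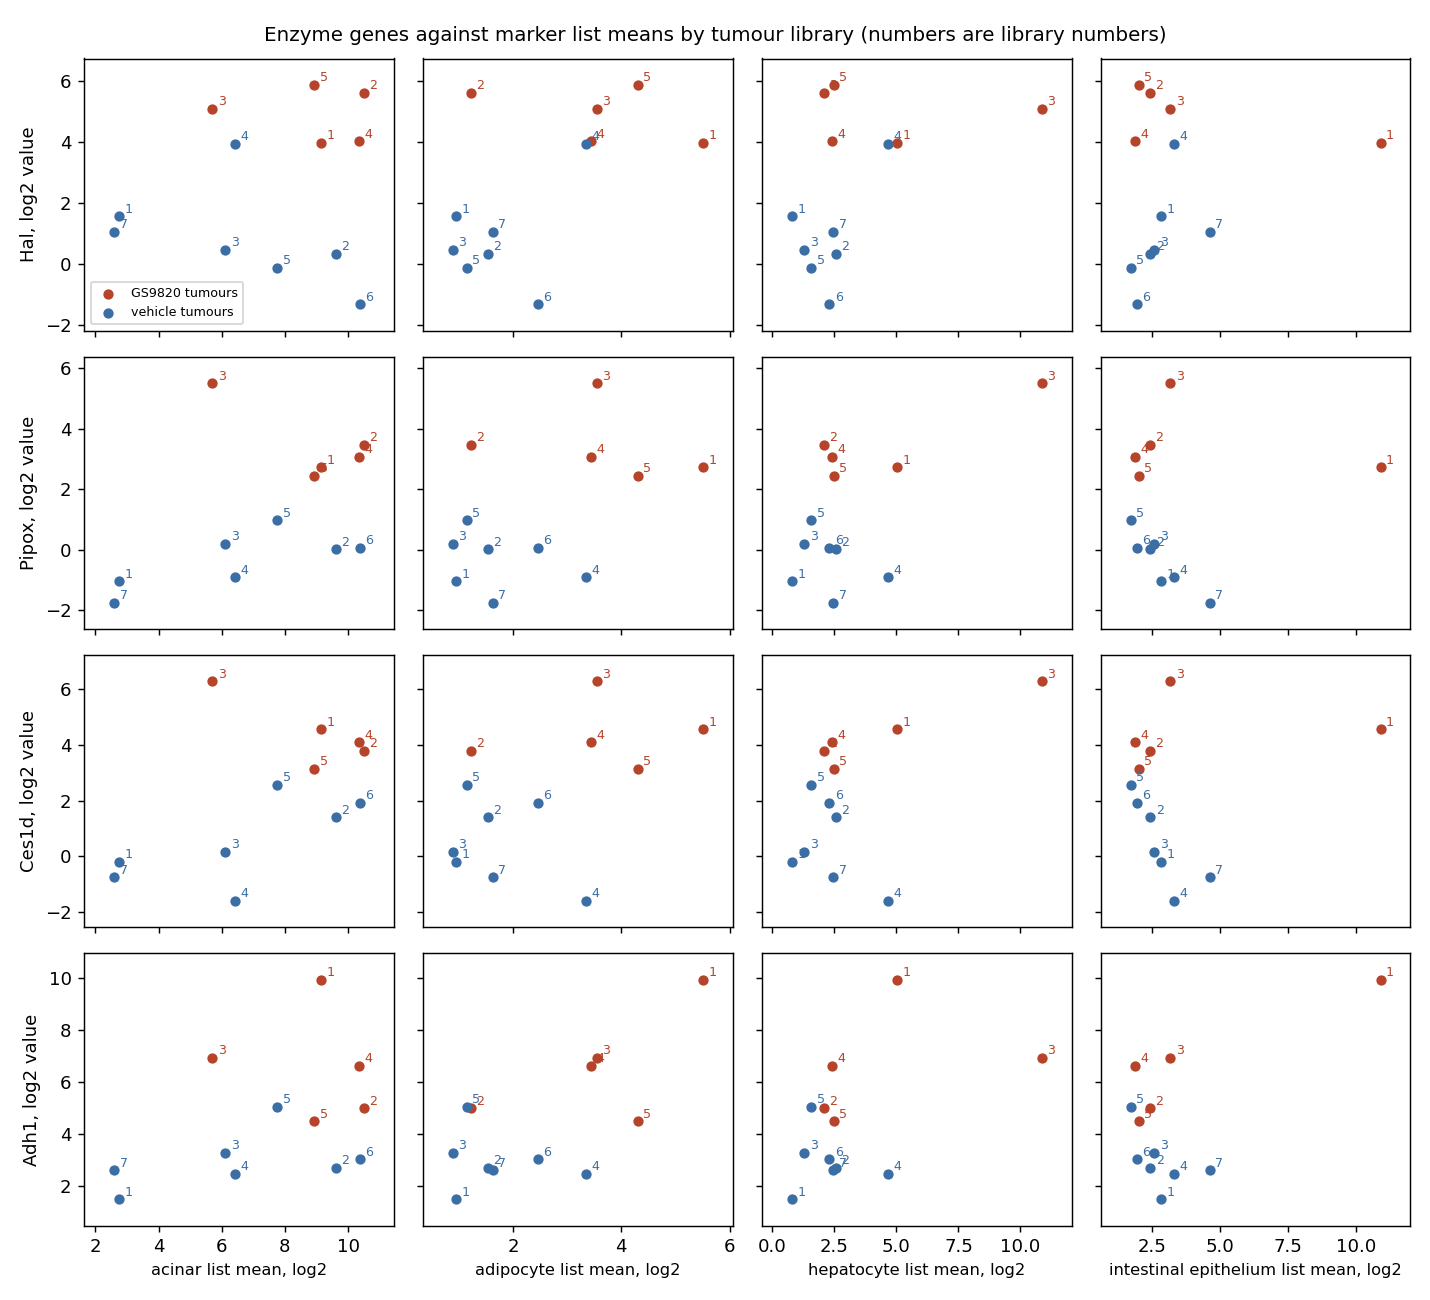
Each enzyme's deposited log2 value (rows, vertical axes) against the mean log2 value of the acinar, adipocyte, hepatocyte and intestinal epithelium lists (columns, horizontal axes), 1 numbered point per tumour, GS9820 red and vehicle blue. GS9820 tumour 3 stands alone on the hepatocyte axis at 10.86 and GS9820 tumour 1 on the intestinal axis at 10.9. On the adipocyte axis GS9820 tumours 5 (4.30) and 1 (5.51) lie well to the right of every vehicle tumour. Vehicle tumour 4 (3.34) is the nearest to GS9820 tumour 4 (3.44), with Hal almost level at 3.95 and 4.03. Its Pipox, Ces1d and Adh1 are lower, at -0.90, -1.62 and 2.47 against 3.08, 4.10 and 6.62.

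The difference of each enzyme was then computed with 1 list mean held as a covariate over the 12 tumours. With the acinar mean held, Hal differed by 4.61 (SE 0.77), Pipox by 3.62 (SE 0.68), Ces1d by 3.50 (SE 0.82) and Adh1 by 3.43 (SE 0.94). With the adipocyte mean held, Adh1 moved most, to 2.65 (SE 1.03), while Hal differed by 3.92 (SE 1.002), Pipox by 4.22 (SE 0.78) and Ces1d by 4.14 (SE 1.01). All 4 differences stayed positive, and only that of Adh1 moved by more than its SE over the 12 libraries. The hepatocyte mean gave 3.85 (SE 0.84) for Hal, 3.30 (SE 0.61) for Pipox, 3.46 (SE 0.82) for Ces1d and 3.24 (SE 0.92) for Adh1. The intestinal mean gave 4.12 (SE 0.79), 3.96 (SE 0.61), 3.95 (SE 0.80) and 3.12 (SE 0.68) in the same order of genes. The panel of held differences shows these 4 list means and the left-out GS9820 tumours, under which the differences ran from 2.42 to 4.61. The islet and resting fibroblast means were not held, and the genes were chosen on these tumour values, so that composition and level cannot be told apart from this panel.

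**Figure D3:**
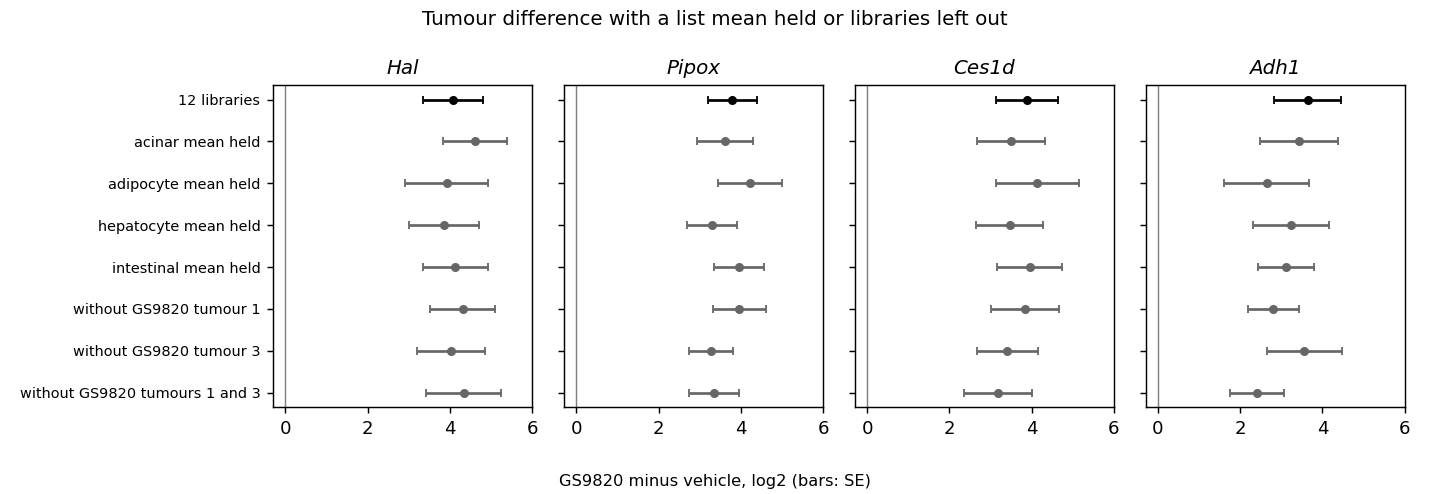
GS9820 minus vehicle difference in tumours (horizontal axis, log2, bars are SE) for each enzyme, over all 12 libraries (black, top) and with 1 list mean held or with GS9820 tumours 1, 3 or both left out (grey). The lowest value shown is 2.42, for Adh1 without GS9820 tumours 1 and 3, and the highest is 4.61, for Hal with the acinar mean held.

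The islet, resting fibroblast, mesothelial, endothelial and intestinal lists held genes that passed the test, which the acinar, adipocyte and hepatocyte lists did not. Over all genes tested 0.878% rose, and these calls rest on a count that was 0 without GS9820 tumour 4 and 31 without GS9820 tumour 2. Islet markers had a list mean of 4.03 to 7.25 in GS9820 tumours and -0.46 to 5.39 in vehicle tumours, with 5 of 16 genes tested called higher (Ppy, Pyy, Chga, Chgb and G6pc2), named here after their values were seen. Of the islet hormones of highest mean, Ins1 differed by 5.38 (SE 1.33) and Gcg by 5.57 (SE 1.57), and neither passed. Resting fibroblast markers had list means of 5.99 to 6.80 in GS9820 tumours and 4.31 to 5.78 in vehicle tumours, with no overlap and 4 of 12 called higher (Dpp4, Dpt, Dcn and Clec3b). Of the mesothelial, endothelial and intestinal lists, Gpm6a, Kdr, Egfl7 and Anpep rose and 0 genes fell. Keratinocyte and kidney tubule lists, for the other tissues where Hal or Pipox is known, had values for 2 of 8 and 3 of 8 genes and 0 called, with means of 2.67 to 3.34 and 0.99 to 2.61 in GS9820 tumours, against 1.84 to 6.81 and 1.21 to 4.14 in vehicle tumours. Smooth muscle, macrophage, lymphocyte and neutrophil lists had 0 called, and the smooth muscle mean was 7.38 in GS9820 tumour 1, against 3.28 to 4.95 in the other GS9820 tumours and 3.18 to 5.48 in vehicle tumours. The part of islet and fibroblast content in the values of the enzymes was not tested.

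Among the 7 vehicle tumours the enzymes were set against the acinar, adipocyte and hepatocyte means in 12 relations. The spread among these tumours was not a criterion of the choice, but their values entered it through the difference between groups. The p-values are therefore not independent of the choice. Pipox and Ces1d had their highest correlations with acinar content. Pipox had Pearson r = 0.73 (exact permutation p = 0.068, n = 7, two-sided) and Spearman rho = 0.61 (exact permutation p = 0.167), and r = 0.62 without the 2 tumours farthest from the median acinar mean. Ces1d had r = 0.68 (exact permutation p = 0.10) and rho = 0.68 (exact permutation p = 0.110), with r = 0.52 without those 2 tumours. Hal ran the other way, with r = -0.49 (exact permutation p = 0.265) and rho = -0.71 (exact permutation p = 0.088), and r = -0.34 without the 2 tumours. Hal and hepatocyte content gave r = 0.59 (exact permutation p = 0.176) and rho = 0.14 (exact permutation p = 0.783), and r was 0.00 without vehicle tumours 1 and 4, the farthest from the median. It rested on vehicle tumour 4, since r was -0.43 without that tumour alone and 0.81 without vehicle tumour 1 alone. The other 8 Pearson correlations lay between -0.44 and 0.45. After Benjamini-Hochberg adjustment over the 12 relations, Pearson p ranged from 0.57 to 0.79 by exact permutation and 0 relations passed. With 7 tumours, relations of moderate size could not be detected.

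The 4 genes did not vary as 1 block among vehicle tumours. Of 6 pairs, 2 passed after adjustment by Spearman rho and 0 by Pearson r. Vehicle tumour 5 had the highest Pipox, Ces1d and Adh1 of the 7. Hal and Ces1d had r = -0.85 (exact permutation p = 0.008, adjusted p = 0.05 over 6 pairs, not under the threshold of 0.05) and rho = -0.93 (exact permutation p = 0.007, adjusted p = 0.037). Without the 2 vehicle tumours of most extreme Hal values r was -0.85, and leaving out 1 tumour gave -0.90 to -0.78. Pipox and Ces1d had r = 0.82 (exact permutation p = 0.026, adjusted p = 0.069), and Pipox and Adh1 had r = 0.78 (exact permutation p = 0.035, adjusted p = 0.069) with rho = 0.89 (exact permutation p = 0.012, adjusted p = 0.037). The other 3 pairs did not pass by either measure. Ces1d and Adh1 had r = 0.67 (exact permutation p = 0.086), and 0.40 without the 2 farthest tumours. Hal and Pipox had r = -0.56 (exact permutation p = 0.178), and Hal and Adh1 had r = -0.45 (exact permutation p = 0.285). Without the 2 vehicle tumours of most extreme Hal values these were -0.87 and -0.90. Spearman rho was 0.79 for Ces1d and Adh1 and -0.79 for Hal and Adh1 (exact permutation, adjusted p = 0.058 each). For Hal and Pipox rho was -0.68 (exact permutation, adjusted p = 0.110). These 6 pairs were examined after the values had been seen, in vehicle values that entered the choice of the genes. In vehicle tumours the medians of Hal, Pipox and Ces1d were at or above only 2.52%, 1.65% and 1.87% of genes. The part of noise at such low values in these correlations, and in those with the marker lists, was not tested.

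The genes most like each enzyme over the 12 tumours, once the group means were subtracted, were mostly different for each of them among 13109 genes searched. Of the genes most like Pipox, Slc10a1 (the bile acid importer) had r = 0.90, Gpld1 0.89, Il17rb 0.88 and Upp2 (uridine phosphorylase) 0.87. Ces1d was nearest to Upb1 (an enzyme of pyrimidine breakdown) at 0.88, Gpr137b at 0.85, Prss53 at 0.82 and Pipox at 0.82. Hal was nearest to Bcap29 at 0.92, Usp14 at 0.91, Zfpl1 at 0.90, Fhl2 at 0.89 and Mrpl19 at 0.89, and all 5 had lower means in GS9820 than in vehicle tumours, by -0.76 to -0.16. Adh1 was nearest to Usf3 and Chuk at 0.95, Gucd1 and Cisd1 at 0.93 and Cipc at 0.91. These correlations describe 12 libraries; without GS9820 tumour 1 the lowest of those given was 0.80, for Adh1 and Cipc, and without GS9820 tumour 3 it was 0.74, for Pipox and Upp2.

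The wider pathways of the 4 enzymes were then examined in tumours, with the enzymes themselves left out. Over all genes tested, 143 of 16296 rose in GS9820 tumours (0.878%) and 216 fell (1.33%; limma, Benjamini-Hochberg adjusted p under 0.05). Of 98 genes in 5 lists, 72 had values and 71 were tested, and 1 rose (Chdh) and 1 fell (Gcsh), a share near that background. An unadjusted p under 0.05 was reached by 14 of the 71 and by 3982 of all 16296. The median difference was 0.22 over the 71 genes, 46 of them positive, and -0.06 over all genes tested, 7383 of them positive. The count over all genes depended on single libraries: it was 0 without GS9820 tumour 4, 31 without GS9820 tumour 2, 122 without GS9820 tumour 5 and 1690 without vehicle tumour 5, against 359 with all 12. Leaving out vehicle tumour 1, 2, 3, 4 or 7 gave 179, 97, 112, 68 and 124.

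None of the measured genes of histidine breakdown and histamine beside Hal passed the test. Of 12 genes, 8 had values and 0 passed, with 2 positive and 6 negative differences and a median of -0.17; Uroc1, Amdhd1 and Ftcd, the enzymes that act after Hal, had no value here. Slc38a3, a transporter of glutamine and histidine, had the smallest p, with a difference of 3.41 (SE 0.92, adjusted p = 0.06, limma). It stood at 3.59, 5.91, 7.31, 4.57 and 4.70 in GS9820 tumours 1 to 5, against -0.09, 4.34, 2.28, 1.67, 1.41, 4.01 and -0.95 in vehicle tumours 1 to 7, so that the groups overlapped in 1 GS9820 and 2 vehicle tumours. Aoc1, the diamine oxidase that degrades histamine, differed by 1.55 (SE 0.74, adjusted p = 0.22, limma).

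Around Pipox, 18 of 25 genes of lysine, pipecolate and sarcosine breakdown had values, with a median difference of 0.22. Chdh, the mitochondrial choline dehydrogenase that opens the path from choline to sarcosine, rose by 2.43 (SE 0.58, adjusted p = 0.049, limma). Its values were 7.16, 5.97, 5.88, 5.72 and 5.10 in GS9820 tumours 1 to 5, against 2.09, 4.11, 3.08, 2.13, 5.72, 4.27 and 3.32 in vehicle tumours 1 to 7. Vehicle tumour 5 was the exception, as it was for Adh1. Gcsh, the lipoyl carrier protein of the glycine cleavage system, fell by 0.999 (SE 0.22, adjusted p = 0.040, limma). It averaged 5.24 ± 0.39 in GS9820 tumours (SD, n = 5) and 6.24 ± 0.38 in vehicle tumours (SD, n = 7). Both calls depended on single libraries: that of Chdh held in 2 of 12 fits with 1 library left out, without vehicle tumour 5 or 6 (adjusted p 0.011 to 0.122 over the 12 fits, limma), and that of Gcsh in 3, without vehicle tumour 5 or 6 or GS9820 tumour 3 (0.018 to 0.123). The differences themselves stayed between 2.14 and 2.80 for Chdh and between -1.14 and -0.89 for Gcsh over these fits. With 1 list mean held, Chdh did not pass under any of the 4 lists (adjusted p 0.057 to 0.175, limma), and Gcsh did not pass with the acinar (0.154) or adipocyte mean (0.080).

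Around Ces1d, 7 of 18 carboxylesterases had values and all 7 were higher on average in GS9820 tumours, with a median of 1.91, but 0 passed. The values followed GS9820 tumour 1, where the list mean was 8.78, against 1.96 to 4.73 in the other GS9820 tumours and 0.38 to 4.68 in vehicle tumours. Ces2b differed by 2.30 (SE 1.34, adjusted p = 0.31, limma) and Ces2a by 2.03 (SE 1.21, adjusted p = 0.32, limma). Ces2b stood at 9.34 in GS9820 tumour 1, which had the intestinal transcripts, and the part of these in the list was not tested. Of 14 neutral lipid hydrolases, 13 had values and 0 passed, with a median of 0.36. Lpl (lipoprotein lipase) differed by 1.02 (SE 0.33, adjusted p = 0.10, limma) and Lipe (hormone-sensitive lipase) by 0.78 (SE 0.25, adjusted p = 0.10, limma).

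Around Adh1, 26 of 29 genes of alcohol, aldehyde and retinoid metabolism had values, 25 were tested and 0 passed, with a median of 0.07. Aldh3a1, an aldehyde dehydrogenase, differed by -3.64 (SE 1.14, adjusted p = 0.09, limma) and Lrat, which esterifies retinol for storage, by 2.14 (SE 0.87, adjusted p = 0.16, limma). Aldh3a1 averaged -0.44 ± 1.75 in GS9820 tumours (SD, n = 5) and 3.19 ± 2.42 in vehicle tumours (SD, n = 7).

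**Figure D4:**
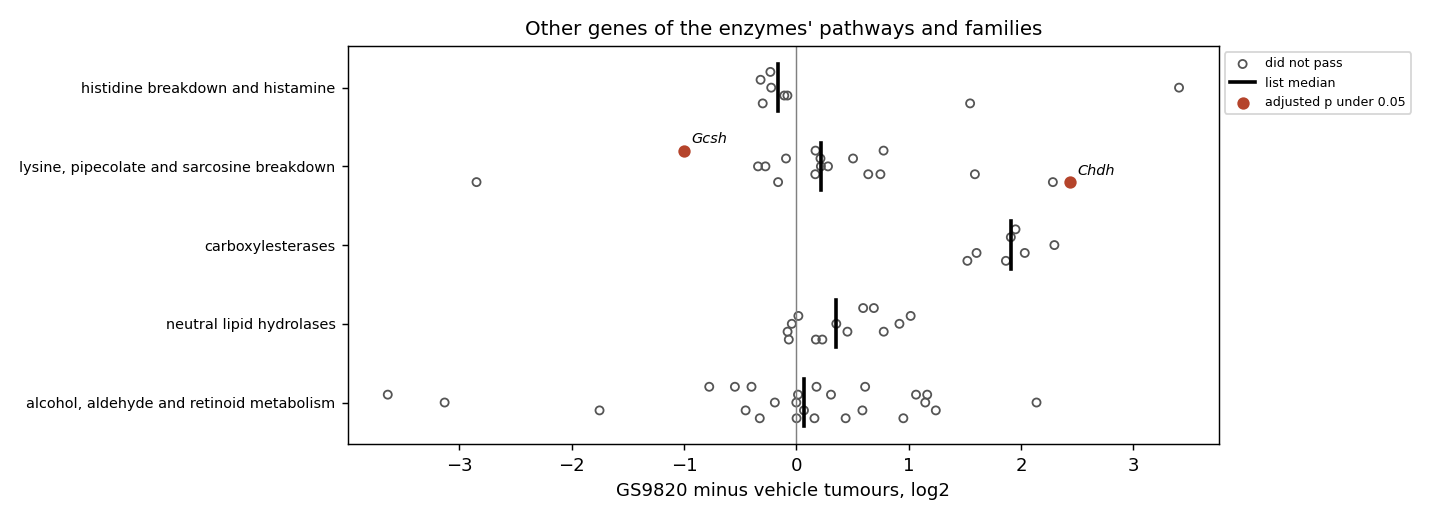
GS9820 minus vehicle difference in tumours (horizontal axis, log2) of the other genes of 5 pathway and family lists, 1 circle per tested gene, filled red where adjusted p was under 0.05, with the list median as a black line. Chdh at 2.43 and Gcsh at -0.999 are the 2 genes past the threshold, and the carboxylesterases all lie to the right of 0 with a median of 1.91.

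Splenic myeloid cells offered values that the choice of the enzymes had not used. The neutrophil marker list averaged 12.5 to 12.9 in GS9820 PMN and 12.8 to 12.9 in vehicle PMN, against 9.02 to 10.2 in GS9820 monocytes and 8.89 to 10.7 in vehicle monocytes. It was thus higher in all PMN than in all monocyte libraries, and high in monocytes too. The macrophage list, whose genes monocytes share in part, did not separate the sorts, at 4.79 to 5.61 in GS9820 monocytes and 4.58 to 4.90 in vehicle monocytes, against 4.64 to 5.34 in GS9820 PMN and 4.36 to 7.0 in vehicle PMN, so the monocyte label was not checked by it. Hal stood at 3.30, 4.21, 3.02 and 2.99 in GS9820 PMN 1 to 4, against 1.94, 3.21 and 3.25 in vehicle PMN 1 to 3. In monocytes it stood at 3.46, 2.60, 1.84 and 1.34 in GS9820 libraries 1 to 4, against 2.84, 2.78 and 2.85 in vehicle libraries 1 to 3. The groups overlapped in both cell types, and the Hal group means ran from 2.31 to 3.38.

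Hal averaged 3.38 ± 0.574 in GS9820 PMN (SD, n = 4) and 2.80 ± 0.742 in vehicle PMN (SD, n = 3), a difference of 0.58 (SE 0.48, adjusted p = 1, limma). It averaged 2.31 ± 0.922 in GS9820 monocytes (SD, n = 4) and 2.82 ± 0.041 in vehicle monocytes (SD, n = 3), a difference of -0.51 (SE 0.48, adjusted p = 0.995, limma). The treatment effect in monocytes minus that in PMN was -1.09 (SE 0.67, adjusted p = 1.0, limma), which did not pass. Vehicle monocytes minus vehicle PMN gave 0.03 for Hal (SE 0.51, adjusted p = 0.970, limma), whereas 60.1% of the 13968 genes tested (8390) passed in that comparison.

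Ces1d was lower and more scattered in the sorted cells. It stood at 2.28, 1.11, 0.76 and 2.16 in GS9820 PMN 1 to 4, against -1.11, -0.13 and 3.65 in vehicle PMN 1 to 3, and the difference was 0.77 (SE 0.94, adjusted p = 1, limma). Vehicle PMN 3 lay above every other library and decided the vehicle mean: without it the difference was 2.20 (adjusted p = 0.478, limma), which did not pass either, and without vehicle PMN 1 it was -0.18. In monocytes Ces1d stood at -1.32, 0.28, 0.61 and 0.66 in GS9820 libraries 1 to 4, against -1.17, 0.56 and 0.07 in vehicle libraries 1 to 3, a difference of 0.24 (SE 0.94, adjusted p = 0.995, limma). Vehicle monocytes minus vehicle PMN gave -0.98 (SE 1.01, adjusted p = 0.414, limma), and the treatment effect in monocytes minus that in PMN gave -0.54 (SE 1.33, adjusted p = 1.0, limma). Over all 13968 genes, GS9820 against vehicle gave 0 calls in PMN (0%), 0 in monocytes (0%) and 0 for the difference of effects (0%), with 430, 335 and 269 genes at an unadjusted p under 0.05. With 3 or 4 libraries a group, differences of this size could not be resolved from 0, and the tumour and spleen differences were not tested against each other.

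**Figure D5:**
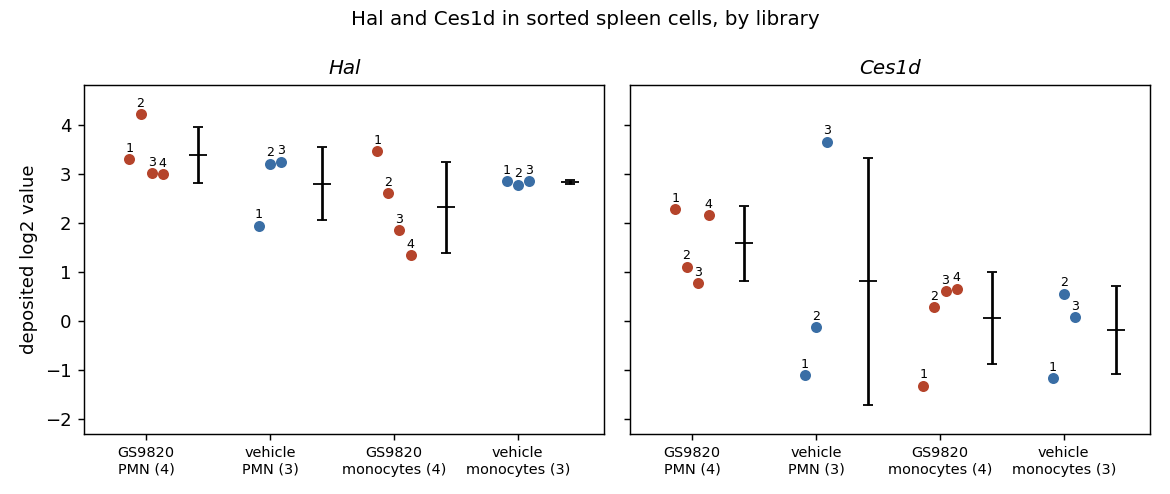
Deposited log2 values (vertical axis) of Hal and Ces1d in PMN and monocytes sorted from spleen, GS9820 (red) left of vehicle (blue) for each cell type, 1 point per numbered library with mean and SD as black bars. Groups overlap for both genes in both cell types, and Ces1d of vehicle PMN 3 (3.65) stands above all other libraries.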

How the data were processed

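RNA of 12 whole tumours and 14 sorted spleen cell libraries was analysed from the authors' deposited log2 values, named log2 RPKM per the file headers. Per the submitters' processing notes TopHat2, STAR and limma were used with mm10, and their roles and versions are not given. Per the labels, tumour libraries came from a stranded total RNA kit and sorted-cell libraries from either of a pair of kits, unstated per library. Values have nearly 1 distribution across the libraries of a set, which hides depth and global shifts, so depth is unknown and no count test was run.

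Identifiers were matched to GENCODE M21 (16039 of 16322 tumour and 13886 of 14131 sorted-cell genes). Genes with a value of at least 0 in 5 tumour or 3 sorted-cell libraries were kept (16296 and 13968). limma 3.58.1 in R 4.3.3 (lmFit, eBayes with mean trend, two-sided) was fitted to tumours by treatment and to sorted cells in 4 groups, with Benjamini-Hochberg adjustment over all genes kept and a threshold of 0.05. The fit was tested on simulated data. Relations used exact permutations of the 5040 pairings (numpy 2.4.6, Python 3.11.15), so the smallest p possible was 2.0e-04. The members, gene lists and tests were chosen with earlier results of these data known. Named genes are the 4 enzymes, of each pathway list those past the threshold or else the 2 of smallest p, of acinar, adipocyte, hepatocyte and islet lists the 2 of highest mean, and the 5 genes most like each enzyme, of which 1 is not reported here; others were chosen after their values were seen. Deviations from the group means of same-numbered GS9820 and vehicle tumours had correlations of -0.18 to 0.27. Those of same-numbered monocytes and PMN had 0.46, 0.29 and 0.11 in vehicle mice and -0.13, -0.21, 0.27 and 0.45 in GS9820 mice. These values do not settle whether shared numbers mark pairs, and the main fits did not use them. Alternatives were other filters, a pseudocount of 1, quantile normalization, no trend, array weights, a replicate block, list covariates and left-out libraries.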

Additional observations from a re-analysis of the deposited data

Results flagged for a closer look

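In 42 groups of values, made of the marker list means and the 4 enzymes by group, 5 held a library far from the others. Chance flags about 1 group in 20, but the count cannot be set against that rate. The groups share libraries, and the intestinal list was chosen after the values of GS9820 tumour 1 were seen. The intestinal epithelium list mean was 10.9 in GS9820 tumour 1, with the nearest GS9820 tumour at 3.17, and in the same library the endothelial list mean was 5.35, with the nearest at 6.04. The ductal list mean was 6.92 in GS9820 tumour 3, the library with hepatocyte transcripts, with the nearest GS9820 tumour at 8.45. Among vehicle tumours, the ductal list mean was 4.21 in vehicle tumour 1, with the nearest at 7.24, and the neutrophil list mean was 6.50 in vehicle tumour 5, with the nearest at 4.06. Vehicle tumour 5 was also the vehicle tumour with the highest Pipox, Ces1d and Adh1, and the relation of these values to its neutrophil content was not tested. None of the 4 enzymes was itself flagged in any group.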

How the results depend on the processing

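Depth is unknown, and the shared distribution hides global shifts. The differences of the 4 enzymes in tumours kept their sign under all alternatives run, which is no test for genes chosen on large differences. Of these values, 83 moved by less than the spread between libraries, and 1, that of Pipox, moved to 2.70 on log2(value + 1). On that scale Hal differed by 3.33, Ces1d by 3.04 and Adh1 by 3.46, so the fold differences given above depend on the treatment of low values. The count of tumour genes called, 359, was 2764 with array quality weights and 0 to 1690 with 1 library left out. Of the other pathway genes, 2 in the main analysis, 1 was called without the mean trend, 7 with array quality weights, 1 without GS9820 tumours 1 and 3, and 0 to 4 with 1 library left out.

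A replicate block on the shared number, which the tumour correlations did not justify, gave 166 tumour genes called, with Chdh at adjusted p = 0.156 and Gcsh at 0.117 (limma), and differences of 3.68 for Hal, 3.59 for Pipox, 3.92 for Ces1d and 3.59 for Adh1. For vehicle monocytes minus PMN, with correlations of 0.46, 0.29 and 0.11 between same-numbered libraries, the replicate block changed no call of either gene. It gave 0.03 for Hal (adjusted p = 0.961, limma) and -0.98 for Ces1d (adjusted p = 0.440, limma).

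In sorted cells no alternative brought either gene past the threshold, and 5 values changed sign while 147 did not. All 5 came with 1 vehicle library left out. Part of the 147 could not change. A difference within 1 cell type does not use the libraries of the other, and the filter and trend do not alter an estimate. The ranges over libraries left out were -0.18 to 2.20 for Ces1d in PMN, -0.26 to 0.70 for Ces1d in monocytes, -0.40 to 0.25 for Hal and -1.94 to 0.44 for Ces1d in vehicle monocytes minus PMN, and -1.96 to 0.42 for the Ces1d difference of effects. Among vehicle tumours 9 correlations with marker lists changed sign and 111 did not: Hal with adipocytes was -0.066 without the 2 farthest tumours and Adh1 with adipocytes was 0.014 on log2(value + 1). With 1 vehicle tumour left out, r ran from -0.71 to 0.85 for Hal with adipocytes, -0.43 to 0.81 for Hal with hepatocytes, -0.59 to 0.32 for Ces1d with adipocytes, -0.65 to 0.19 for Ces1d with hepatocytes, -0.52 to 0.13 for Adh1 with adipocytes and -0.59 to 0.17 for Adh1 with hepatocytes. The causes were not tested.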
